A study of Mus musculus with 32 samples.

Results

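The 10 genes described here are the growth factor genes Hgf, Egf, Areg, Ereg, Hbegf, Tgfa and Btc and the receptor genes Met, Egfr and Erbb3, out of 21073 genes tested on mouse liver arrays. They were chosen by name: every non-control probe whose gene name in the array files is one of the 10 was taken, which gave 12 probes, 3 of them for Egfr and 1 for each of the others. All 10 genes had a probe well above background on the 4 arrays of at least 1 group, and 6 of them (Hgf, Met, Egfr, Erbb3, Hbegf and Tgfa) were well above background on all 32 arrays. Areg passed this filter through the untreated MCD groups before and after surgery and Ereg through the untreated MCD group before surgery alone, so a count over the genes that passed is not independent of the diet.

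The study asked how an agonist of the receptor for glucagon-like peptide 1 (GLP-1) acts on fatty liver and on the liver after partial hepatectomy (PH). RNA came from livers of male C57/BL6 mice, 8 weeks old at the start, in 8 groups of 4 arrays, each array labelled as a biological replicate. C mice ate chow and MCD mice a diet lacking methionine and choline, for 3 weeks before PH, and both received saline. Mice named C+Fc-GLP-1 (chow) or M+Fc-GLP-1 (MCD) ate the same diets and received Fc-GLP-1, a GLP-1 analogue fused to an antibody Fc part, by injection every 2 days in the last 2 weeks before PH. The arrays before PH hold the tissue at the time of surgery, and those after PH hold livers 2 weeks after 70% of the liver had been removed, with diet and treatment kept on by the study's methods. The study reported that a smaller share of MCD than of M+Fc-GLP-1 mice survived PH, so arrays after PH hold survivors alone. Its methods give the dose as 10 nmol/kg of Fc-GLP-1, whereas other label text of all treated samples speaks of an agent that activates both GLP-1 and glucagon receptors, given at 4.4 mg/kg per day. For the 4 C+Fc-GLP-1 arrays after PH even the label that gives the group names Fc-GLP-1 before surgery and a dual agonist after it, and this conflict was not settled. Sample names before and after PH share numbers within a diet and treatment, and the tissue removed at surgery may come from the mice sampled after it, but no source used here ties 1 array to another, so arrays are compared over time without pairs.

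HGF is made by the non-parenchymal cells of the liver, stellate and endothelial cells above all, and is released as an inactive chain that serine proteases cut into the ligand of MET, a receptor tyrosine kinase of hepatocytes. EGF, amphiregulin (Areg), epiregulin (Ereg), HB-EGF (Hbegf), TGF alpha (Tgfa) and betacellulin (Btc) are made as membrane-bound precursors, are shed by proteases and bind EGFR, and some of them bind ERBB4 too. ERBB3 has almost no kinase activity of its own, binds neuregulins and signals with a partner such as ERBB2 or EGFR. MET and EGFR signals through ERK help quiescent hepatocytes to enter the cell cycle after the liver loses mass, and EGFR is among the receptors that the hepatocyte carries in large number.

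The probe sequences behind the largest differences are shown because the results turn on what each probe reads. They are given 5′ to 3′ on the transcript strand with positions on mm9, the build of the array files, and capitals mark a stop codon that ends an open reading frame over the whole probe. Each of the 5 probes has at least 1 open frame over its 60 bases. The Areg probe lies at chr5:91570090-91570149 (+), the Met probe at chr6:17503299-17503358 (+) and the Erbb3 probe at chr10:128006424-128006483 (-). The Egfr probe A_55_P1956863 lies at chr11:16783556-16783615 (+) and the Egfr probe A_55_P1956862 at chr11:16787172-16787231 (+), and the array files assign both to the RefSeq record NM_007912, which is Egfr transcript variant 2, whereas the brightest Egfr probe, A_52_P106259, carries NM_207655, the record of variant 1. The probes are called by these records below. Variant 1 encodes the full-length receptor and variant 2 a shorter form that ends outside the cell, without the kinase part. The record does not make a probe specific to it: A_55_P1956863 lies in a coding stretch for the outer part of the receptor that both forms carry, whereas A_55_P1956862 ends at the stop codon of its own open frame.
Areg A_52_P482897: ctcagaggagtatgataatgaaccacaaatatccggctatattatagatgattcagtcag
Met A_51_P103929: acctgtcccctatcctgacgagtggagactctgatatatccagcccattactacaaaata
Erbb3 A_55_P2119897: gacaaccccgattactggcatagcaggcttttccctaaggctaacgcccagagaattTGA
Egfr A_55_P1956863: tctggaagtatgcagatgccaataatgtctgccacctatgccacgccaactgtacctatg
Egfr A_55_P1956862: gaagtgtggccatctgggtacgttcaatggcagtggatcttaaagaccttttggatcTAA

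All values are log2 signal minus the 75th percentile of the same array, so 0 is the level of a spot at that percentile, 1 unit is a doubling, and levels of different probes are not compared. Between 36.3% and 69.2% of the probes of an array were well above background, and the 75th percentile of intensity ranged from 209 to 778. Differences come from limma over all 32 arrays, and a gene is called changed at an adjusted p under 0.05 (Benjamini-Hochberg over the 21073 genes). C and MCD livers before PH shared slide 1, both treated groups before PH slide 2 and both treated groups after PH slide 4, whereas C and MCD livers after PH lay on slides 3 and 5, each with 1 group, read on a different scanner from the rest. Slide cancels in MCD against C before PH and in M+Fc-GLP-1 against C+Fc-GLP-1 at either time, and in all other differences between groups slide and group cannot be told apart. C after PH replicate 1 stood apart, with a mean correlation of 0.947 with the other arrays of its group against 0.966 or more for every other array. Met, Egfr, Egf and Tgfa were each printed as 10 spots, and within an array the highest of these spots was by the median 1.85-fold (Met), 2.10-fold (Egfr), 2.25-fold (Egf) and 1.98-fold (Tgfa) above the lowest. In bulk liver, fewer cells of a type and less RNA per cell cannot be told apart.

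Before PH, the receptors were lower and some ligands higher on the MCD diet in untreated mice. Met, Egfr and Erbb3 were lower and Areg, Btc and Egf were higher in MCD than in C livers, while Hgf, Ereg, Hbegf and Tgfa did not pass the test. These are 6 of 10 genes, where 26.4% of all genes tested were called in this comparison, and 3 of the 6 genes that were well above background on every array. The median change of the 10 genes was 0.55, against -0.13 for all genes. This median mixes receptors with ligands and includes Areg and Ereg, which passed the filter through untreated MCD groups alone. Of the 6 genes well above background on every array, Hgf (0.93) and Hbegf (0.23) had positive changes. Tgfa (-0.45), Met (-1.02), Egfr (-1.36) and Erbb3 (-1.82) had negative ones.

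**Figure D1:**
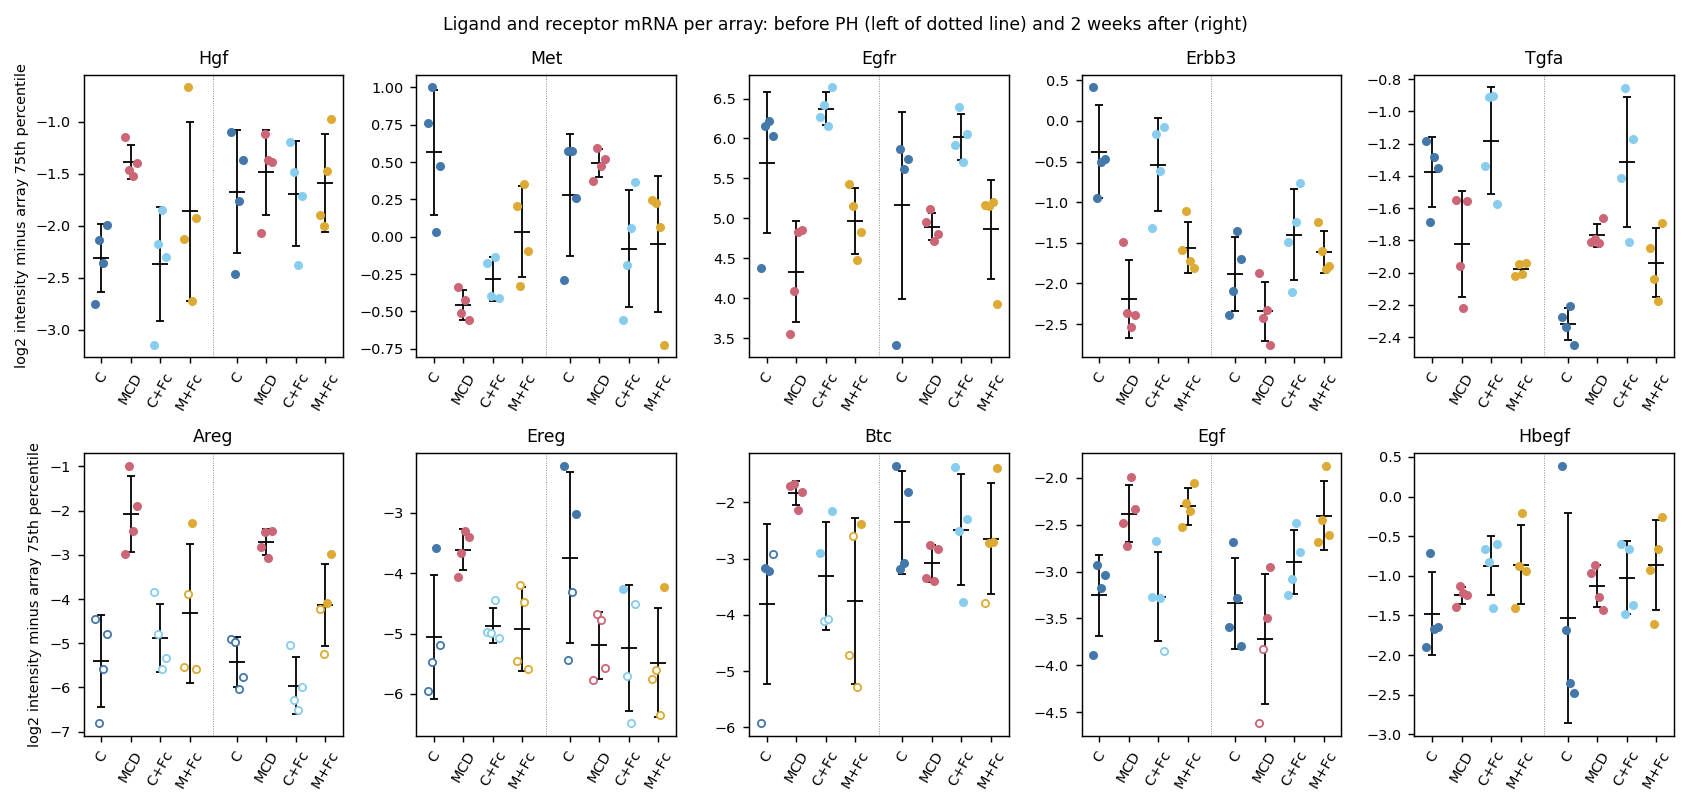
Level of the brightest kept probe of each of the 10 genes on each array (log2 intensity minus the 75th percentile of the array, 1 panel a gene), with mean and SD bars over the 4 arrays of a group and open points where the probe was not well above background. Areg lies at -2.98 to -0.98 on the MCD arrays before PH and at -6.80 to -4.46 on the C arrays, and Erbb3 lies lower on MCD than on C arrays before PH.

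Erbb3, the receptor with almost no kinase activity, read 0.41, -0.94, -0.51 and -0.47 on the C arrays before PH and -1.49, -2.36, -2.54 and -2.38 on the MCD arrays. Every MCD array lay below every C array. The change was -1.82 (SE 0.32, adjusted p = 0.000155), or 3.52-fold lower, and the call held in each of the 8 fits that left out 1 array. Met, the HGF receptor, read 0.76, 1.00, 0.03 and 0.47 in C livers and -0.33, -0.51, -0.43 and -0.56 in MCD livers. The groups did not overlap, and the MCD arrays lay close together. Met was 2.03-fold lower (log2 change -1.02, SE 0.24, adjusted p = 0.00269), also in each of the 8 fits without 1 array, and ran from -1.02 to -0.66 over 8 other settings, all of them called.

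Egfr was read by 3 probes, and they differed in how far they fell on the MCD diet. The NM_207655 probe read 4.37, 6.15, 6.22 and 6.03 in C livers and 3.55, 4.10, 4.83 and 4.86 in MCD livers before PH. The groups overlapped through C replicate 1, the lowest C array. The change was -1.36 (SE 0.43, adjusted p = 0.0194), a 2.57-fold lower signal, and in fits without 1 array it ran from -1.80 to -1.10 and lost the call without C replicate 2, 3 or 4 or MCD replicate 1 (largest adjusted p 0.0802). It was also lost under normexp with quantile normalization (adjusted p = 0.0529), median centring (adjusted p = 0.0743) and the authors' values (adjusted p = 0.0542). The NM_007912 probe A_55_P1956863 read 5.01, 5.21, 6.37 and 5.54 in C livers and 2.63, 1.94, 3.00 and 1.64 in MCD livers. The other NM_007912 probe, A_55_P1956862, whose frame ends in the stop codon printed above, read 5.59, 5.80, 6.06 and 5.10 in C livers and 2.60, 1.93, 2.78 and 1.98 in MCD livers. On both probes the groups lay far apart.

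With each kept probe fitted on its own, a step added after the Egfr probes were seen to differ, the NM_007912 probes changed by -3.23 (SE 0.46, adjusted p = 1.26e-05) and -3.31 (SE 0.47, adjusted p = 1.22e-05), or 9.39-fold and 9.93-fold lower, where 25.2% of the 28937 kept probes were called. Their changes were larger than that of the NM_207655 probe by -1.87 (SE 0.36, adjusted p = 0.00145) and -1.95 (SE 0.38, adjusted p = 0.00156), tested on the difference between the probes within each array. Among 7864 further probes set against the brightest probe of their gene in the same way, 8.67% differed in this comparison. The same pattern was seen in the treated mice. In M+Fc-GLP-1 against C+Fc-GLP-1 livers before PH the NM_007912 probes fell by 3.21 (adjusted p = 2.36e-05) and 3.34 (adjusted p = 1.84e-05) on the log2 scale, with 10.1% of probes called, and the NM_207655 probe by 1.40 (adjusted p = 0.0344). The difference between probes was -1.81 (adjusted p = 0.00438) and -1.93 (adjusted p = 0.00387), with 2.00% of probes called. In both comparisons before PH the difference between probes was called in 8 of 8 fits without 1 array. The array files do not say how the probe signals divide between the 2 transcripts.

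**Figure D2:**
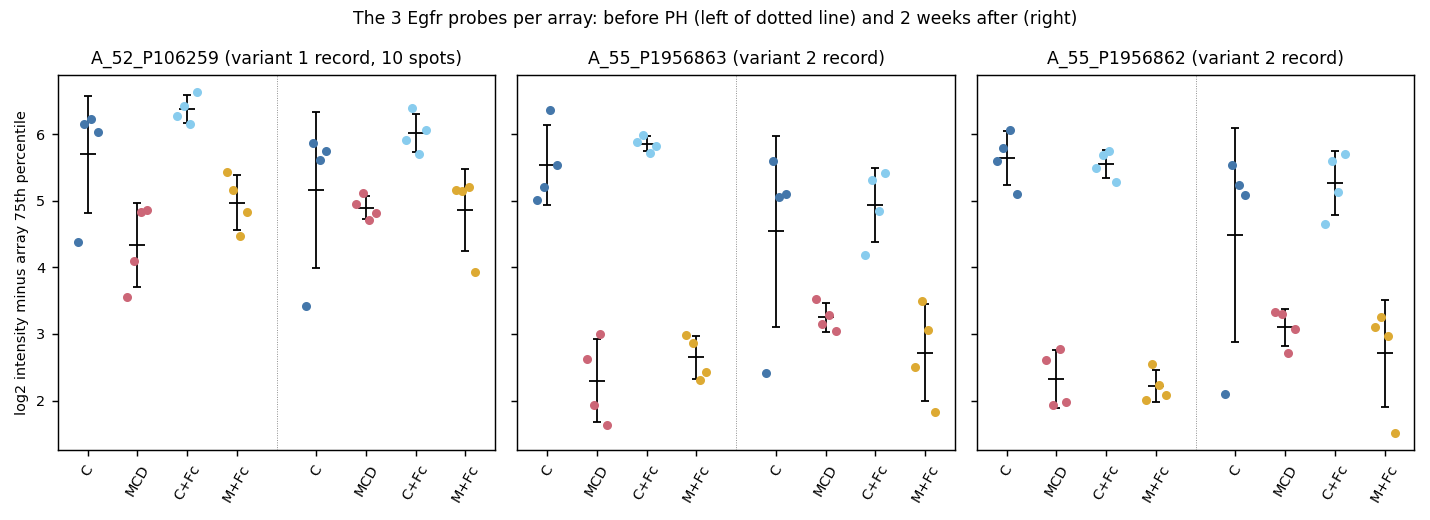
Level of the 3 Egfr probes on each array (log2 intensity minus the 75th percentile of the array), with mean and SD over the 4 arrays of a group. On both NM_007912 probes the MCD and M+Fc-GLP-1 arrays before PH lie at 3.00 or below and the chow arrays at 5.01 or above, while the NM_207655 probe shows a smaller step, and C after PH replicate 1 lies apart on all 3 probes.

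Among the ligands, Areg showed the largest difference. Areg read -4.46, -6.80, -5.58 and -4.78 in C livers before PH, none of them well above background, and -2.98, -0.98, -2.47 and -1.90 in MCD livers, all well above background. Every MCD array lay above every C array. The fitted change was 3.32 (SE 0.60, adjusted p = 0.000178) between means of -5.41 and -2.08. Since the C arrays give only a bound, Areg was at least 6.17-fold higher in MCD livers, taking for each C array the higher of the probe's own signal and the lowest signal well above background on that array. It was called in each of the 8 fits without 1 array. Over 8 other settings it was also called, with fitted changes from 1.13 to 3.69, so the bound holds for the main processing alone. Before PH, Areg was well above background on 0 of 4 C, 4 of 4 MCD, 0 of 4 C+Fc-GLP-1 and 1 of 4 M+Fc-GLP-1 arrays.

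Areg, Ereg and Btc lie near each other on chromosome 5, where RefSeq (GRCm38.p6) places Ereg at chr5:91074617-91093649, Areg at chr5:91139599-91148432 and Btc at chr5:91357261-91402994. Btc read -5.92, -3.16, -3.21 and -2.92 in C livers, with the first and last not well above background, and -1.70, -1.67, -2.14 and -1.82 in MCD livers. No array overlapped, and the first C array lay far below the rest. The change of 1.97 (SE 0.66, adjusted p = 0.0270) became 1.27 (adjusted p = 0.153) without that array, and the call was also lost without MCD replicate 1, 2 or 4. Ereg read -5.96, -5.48, -3.58 and -5.19 in C livers, with only replicate 3 well above background, and -4.06, -3.66, -3.31 and -3.40 in MCD livers. Replicate 3 of the C livers lay among the MCD arrays, and the change of 1.45 had an adjusted p of 0.0593 with it and 0.0160 without it. Genes within 500000 bases of Areg were looked at after the values were seen, in a comparison where 26.4% of all genes were called. Pf4 (2.13, adjusted p = 0.000248), Rassf6 (1.51, adjusted p = 0.00239) and Mthfd2l (1.32, adjusted p = 0.000816) were higher on the MCD diet. Cxcl1, Cxcl5, Ppbp and Parm1 did not pass the test (changes of 0.25 to 1.99), and Cxcl2, Cxcl3, Cxcl15 and Epgn were not tested.

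The Areg promoter is printed because Areg showed the largest difference among the ligands, as the 250 bases before the RefSeq start, chr5:91139349-91139598 (+) on GRCm38.p6. Capitals mark a cyclic AMP response element, TGACGTCA, that begins 61 bases before the start and a TATA motif, TATAAA, that begins 31 bases before it.
Areg promoter: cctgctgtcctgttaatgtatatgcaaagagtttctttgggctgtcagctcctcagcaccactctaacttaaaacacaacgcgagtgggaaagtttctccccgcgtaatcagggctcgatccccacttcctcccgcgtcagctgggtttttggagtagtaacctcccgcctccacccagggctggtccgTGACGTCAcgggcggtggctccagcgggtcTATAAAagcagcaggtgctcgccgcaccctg

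The motifs searched were TGACGTCA and the AP-1 motif (TGACTCA or TGAGTCA), on both strands, and TATAAA on the strand of the gene. Of 32851 promoter windows of this length, 1.55% held TGACGTCA, 4.46% an AP-1 motif and 7.59% TATAAA. The windows of Btc, Egf, Egfr, Hgf and Tgfa held none of them, and that of Met held an AP-1 motif 54 bases before the start. Such a match describes the sequence and says nothing of binding in these livers.

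Egf, whose product circulates and reaches the liver mainly from other organs, read -3.89, -2.93, -3.18 and -3.03 in C livers and -2.48, -2.73, -1.99 and -2.33 in MCD livers before PH. The groups did not overlap, and all arrays lay low on the scale. The change was 0.87 (SE 0.31, adjusted p = 0.0353), and it ran from 0.66 to 0.99 without 1 array, with the call lost in 5 of 8 such fits (without C replicate 1 or 3 or MCD replicate 1, 3 or 4; largest adjusted p 0.138) and without the filter on dim probes (adjusted p = 0.0545). Hgf read -2.75, -2.14, -2.36 and -1.99 in C livers and -1.15, -1.47, -1.52 and -1.40 in MCD livers. Here too all MCD arrays lay above all C arrays, and the change of 0.93 (SE 0.36) missed the threshold at an adjusted p of 0.0550. Tgfa changed by -0.45 (adjusted p = 0.102) and Hbegf by 0.23 (adjusted p = 0.711).

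Marker genes of other cells were read in the same comparison, where 26.4% of all genes were called. Of the markers tested, 6 of 8 of Kupffer cells and macrophages, 4 of 11 of stellate cells and fibroblasts, 2 of 8 of neutrophils and 6 of 6 of dividing cells were higher in MCD than in C livers, 2 of 7 of hepatocytes and 2 of 6 of lymphocytes were lower and 0 of 7 of cholangiocytes passed the test. Of endothelial markers 1 of 7 and of mesothelial markers 1 of 5 were higher, smaller shares than that of all genes. The shares for hepatocytes and neutrophils were near that of all genes. Of the 8 hepatocyte markers listed, 7 passed the filter on dim probes. The summed Kupffer marker level (log2) ran from 5.90 to 6.77 in C and from 6.95 to 8.46 in MCD livers, and the summed hepatocyte marker level from 11.6 to 12.1 and from 11.2 to 11.3. The summed lymphocyte marker level ran from 2.58 to 3.17 in C and from 1.67 to 2.42 in MCD livers. Their part in the values of the 10 genes was not tested.

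M+Fc-GLP-1 against C+Fc-GLP-1 livers before PH asks for the same diet difference under treatment. Egfr, Erbb3 and Tgfa were lower and Egf was higher on the MCD diet, 4 of 10 genes, where 10.4% of all genes were called. Tgfa, which hepatocytes make themselves, read -1.34, -0.91, -0.91 and -1.57 in C+Fc-GLP-1 livers and -2.02, -1.95, -2.01 and -1.94 in M+Fc-GLP-1 livers. The M+Fc-GLP-1 arrays agreed closely and lay below every C+Fc-GLP-1 array. The change was -0.80 (SE 0.20, adjusted p = 0.0102), called in each of the 8 fits without 1 array but not with the authors' values (adjusted p = 0.0589) or with only the groups compared (adjusted p = 0.0712).

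Erbb3 read -1.31, -0.16, -0.61 and -0.07 in C+Fc-GLP-1 livers and -1.58, -1.11, -1.73 and -1.81 in M+Fc-GLP-1 livers. The groups overlapped by 1 array on each side. Its change of -1.02 (SE 0.32, adjusted p = 0.0392) lost the call in 6 of 8 fits without 1 array and kept it only without C+Fc-GLP-1 replicate 1 or M+Fc-GLP-1 replicate 2. Egf changed by 0.96 (adjusted p = 0.0424), a call kept only without C+Fc-GLP-1 replicate 2 of the 8 arrays, and the NM_207655 probe of Egfr by -1.40 (adjusted p = 0.0338), a call kept only without M+Fc-GLP-1 replicate 1 or 2. The largest adjusted p in these fits was 0.122 for Erbb3, 0.141 for Egf and 0.102 for Egfr. Over 8 other settings the calls were lost in 5 for Erbb3, 5 for Egf and 3 for Egfr. Areg did not pass the test here, with mean levels of -4.89 on chow and -4.33 on the MCD diet. Met (0.31, adjusted p = 0.455), Btc (-0.44, adjusted p = 0.734) and Ereg (-0.05, adjusted p = 0.968) did not pass it either. The signs of these 3 fitted changes were opposite to those in untreated mice. Hgf (0.51, adjusted p = 0.409) and Hbegf (0.01, adjusted p = 0.990) did not pass.

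Few of the 10 genes differed between treated and untreated mice before PH. In chow-fed mice 0 of 10 genes passed limma's test, where 2.11% of all genes were called, and 1 of 10, Met, had an unadjusted p under 0.05. Met read -0.17, -0.40, -0.14 and -0.41 in C+Fc-GLP-1 livers, below every C array, with a change of -0.85 and an adjusted p of 0.0608. That value was 0.0307 without C replicate 3 and between 0.0288 and 0.0471 under 3 other settings. In MCD-fed mice Areg alone of the 10 genes passed the test, where 7.22% of all genes were called. Areg read -5.54, -3.89, -2.29 and -5.58 in M+Fc-GLP-1 livers, of which only replicate 3 was well above background and overlapped the MCD arrays. The fitted change was -2.24 (SE 0.60, adjusted p = 0.0225), with no fold given because 3 of the 4 M+Fc-GLP-1 arrays gave only a bound. The call was lost with only the groups compared (adjusted p = 0.0790) and without MCD replicate 2 or M+Fc-GLP-1 replicate 1 or 4 (changes from -2.92 to -1.83 over the 8 fits, largest adjusted p 0.0881).

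Btc read -4.72, -2.60, -5.29 and -2.39 in M+Fc-GLP-1 livers, all below the MCD arrays, and its change of -1.92 had an adjusted p of 0.0699. Ereg was well above background on 0 of 4 M+Fc-GLP-1 arrays before PH. Its mean over the MCD arrays was at least 1.44-fold higher, but the difference did not pass the test (adjusted p = 0.152). In the same comparison 4 of 8 Kupffer cell markers and 2 of 8 neutrophil markers were lower and 1 of 8 neutrophil markers was higher, and the summed Kupffer marker level ran from 6.95 to 8.46 in MCD livers and from 5.60 to 6.93 in M+Fc-GLP-1 livers. Their part in the Areg values was not tested.

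Whether the drug acted differently on the 2 diets was tested as an interaction. Slide cancels in the interaction before PH if slide effects are additive, but not in that after PH. Before PH, Met (1.34, SE 0.34, adjusted p = 0.0227) and Areg (-2.76, SE 0.84, adjusted p = 0.0479) differed, 2 of 10 genes where 6.15% of all genes did. For Met, the mean was lower with the drug on chow (0.57 in C livers, -0.28 in C+Fc-GLP-1 livers) and higher with it on the MCD diet (-0.46 in MCD and 0.03 in M+Fc-GLP-1 livers). Neither of these differences passed the test by itself (adjusted p 0.0608 and 0.214), and the interaction was called in 16 of 16 fits without 1 array. It was not called under normexp with quantile normalization (0.95, adjusted p = 0.0601), median centring (0.71, adjusted p = 0.148) or the authors' values (0.95, adjusted p = 0.0739). For Areg the means were -5.41 and -4.89 on chow, levels that no array read well above background, and -2.08 and -4.33 on the MCD diet, so the size of the interaction rests on a chow level that is only a bound. The Areg call was lost in 12 of 16 fits without 1 array, kept only without C replicate 1, C+Fc-GLP-1 replicate 3 or M+Fc-GLP-1 replicate 2 or 3, with changes from -3.44 to -2.29 and adjusted p up to 0.102, and in 4 of 8 other settings.

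**Figure D3:**
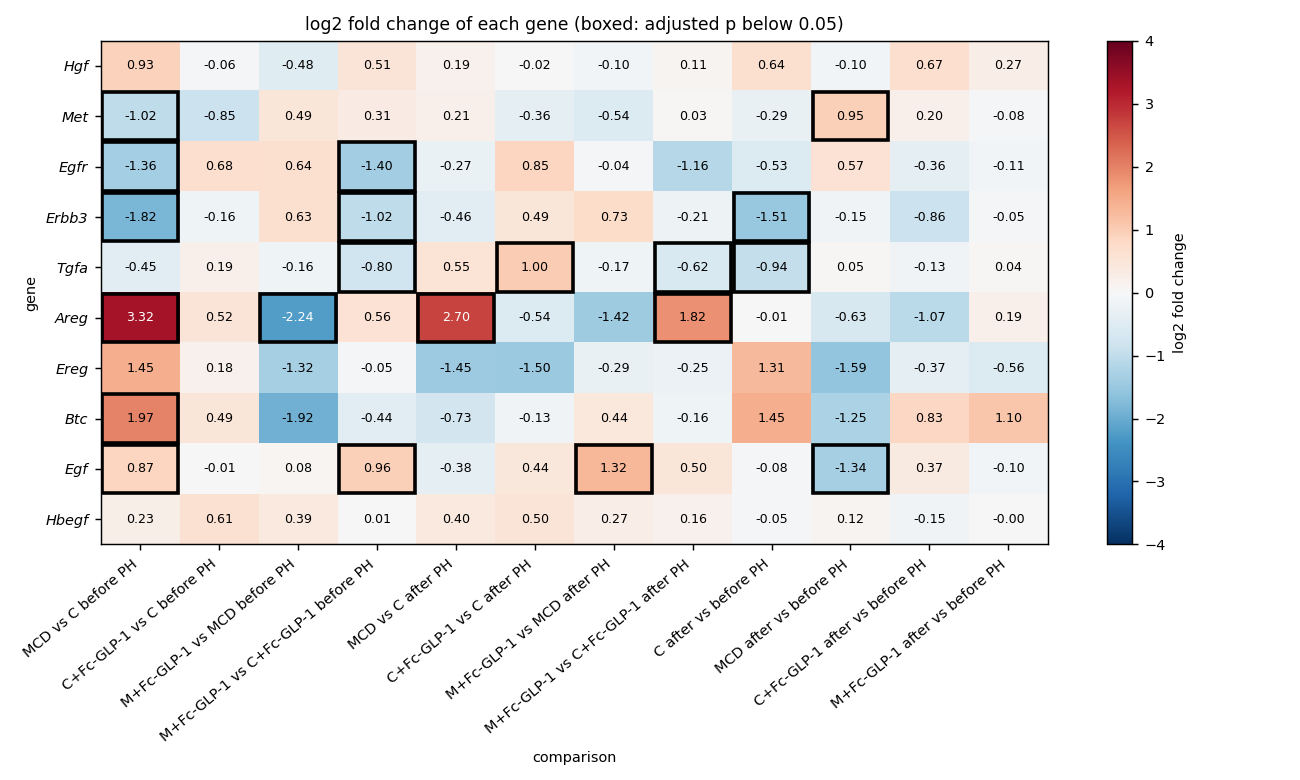
Heat map of the log2 change of each of the 10 genes (rows) in each of the 12 comparisons between groups (columns), with the value printed in each cell and a box around genes called at an adjusted p under 0.05. In MCD against C livers before PH the boxed cells are Met (-1.02), Egfr (-1.36), Erbb3 (-1.82), Areg (3.32), Btc (1.97) and Egf (0.87), and the rows of Hgf, Ereg and Hbegf hold no box.

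At 2 weeks after PH, Areg was still higher in MCD than in C livers. It read -2.82, -2.47, -3.08 and -2.47 in MCD livers, all well above background, and -4.90, -4.97, -6.03 and -5.75 in C livers, none of them. Areg was at least 4.75-fold higher in the main processing (fitted change 2.70, SE 0.60, adjusted p = 0.00312). The call held in each of the 8 fits without 1 array and under 8 other settings, where the change ran from 0.73 to 2.83. Areg was the only 1 of the 10 genes called, where 12.1% of all genes were. Erbb3 read -1.87, -2.43, -2.33 and -2.75 in MCD livers and -2.39, -2.10, -1.36 and -1.69 in C livers, overlapping groups with a change of -0.46 that did not pass the test (adjusted p = 0.395). Met overlapped too, with means of 0.49 in MCD and 0.28 in C livers (adjusted p = 0.638). Tgfa lay higher on every MCD array than on every C array, with a change of 0.55, against -0.45 before PH. It did not pass the test (adjusted p = 0.0757). In this comparison 6 of 8 neutrophil markers were higher in MCD livers, whose summed level ran from 5.70 to 7.47 against 3.03 to 4.93 in C livers, and 0 of 8 Kupffer cell markers passed the test. Their part in the Areg values was not tested.

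C after PH replicate 1 carried the Egfr values of this comparison. The NM_207655 probe read 3.42 on that array and 5.87, 5.62 and 5.75 on the other C arrays, the probe A_55_P1956863 read 2.42 and then 5.59, 5.06 and 5.10, and the probe A_55_P1956862 read 2.10 and then 5.54, 5.24 and 5.09. All 3 probes were low on the same array. Against the MCD livers the changes of the NM_007912 probes were -1.29 (adjusted p = 0.0664) and -1.39 (adjusted p = 0.0524) with all arrays, where 11.6% of probes were called. Without that array the log2 level of A_55_P1956863 fell by 2.00 (adjusted p = 0.000317) and that of A_55_P1956862 fell by 2.19 (adjusted p = 3.27e-05). The NM_207655 probe changed by -0.27 (adjusted p = 0.754) and by -0.85 (adjusted p = 0.134). The difference between the probes, -1.03 and -1.13, did not pass the test (adjusted p 0.135 and 0.115), where 2.78% did. Hbegf, the membrane-bound ligand that also serves as the diphtheria toxin receptor in primates, read 0.39 on that array and -1.68, -2.35 and -2.48 on the other C arrays, and its change in MCD against C livers was 0.40 (adjusted p = 0.596) with it and 1.04 (adjusted p = 0.0300) without it. Ereg read -2.22, -5.43, -4.30 and -3.02 in C livers after PH, 2 of the 4 well above background. Its change of -1.45 in MCD livers, none of them well above background, had an adjusted p of 0.0967 with all arrays. That value was 0.0242 without C replicate 2, the lowest C array for Ereg, while C replicate 1 was the highest.

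Under treatment after PH, Areg was higher and Tgfa lower on the MCD diet, 2 of 10 genes where 12.8% of all genes were called. Areg read -5.03, -6.29, -6.52 and -6.00 in C+Fc-GLP-1 livers, none above background, and -4.21, -5.25, -4.08 and -2.99 in M+Fc-GLP-1 livers, the last 2 well above background. Its fitted change was 1.82 (adjusted p = 0.0409), with no fold given because 2 M+Fc-GLP-1 arrays and every C+Fc-GLP-1 array gave only a bound. Tgfa changed by -0.62 (adjusted p = 0.0396). The groups overlapped for both genes, and each call was lost in 6 of 8 fits without 1 array and in 5 (Areg) and 6 (Tgfa) of 8 other settings, with an adjusted p without 1 array of up to 0.146 for Areg and 0.165 for Tgfa. The Areg call was kept only without C+Fc-GLP-1 replicate 1 or M+Fc-GLP-1 replicate 2, and the Tgfa call only without C+Fc-GLP-1 replicate 3 or M+Fc-GLP-1 replicate 4. The NM_007912 probes of Egfr were lower by -2.22 (adjusted p = 0.00151) and -2.56 (adjusted p = 0.000403), where 12.3% of probes were called, in each of the 8 fits without 1 array, and the NM_207655 probe changed by -1.16 (adjusted p = 0.0787). The difference between probes was -1.06 (adjusted p = 0.108) for A_55_P1956863 and -1.41 (adjusted p = 0.0336) for A_55_P1956862, where 3.22% of probes differed, and the latter was called in only 1 of 8 fits without 1 array.

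On each diet 1 of the 10 genes differed between treated and untreated mice after PH. Tgfa read -2.27, -2.34, -2.21 and -2.45 in C livers and -1.41, -0.85, -1.81 and -1.17 in C+Fc-GLP-1 livers. All C arrays lay below all C+Fc-GLP-1 arrays. Tgfa was 2.01-fold higher in C+Fc-GLP-1 livers (log2 change 1.00, SE 0.20, adjusted p = 0.00802), where 2.06% of all genes were called, but not called with only the groups compared (adjusted p = 0.0862). Egf read -4.62, -3.82, -3.50 and -2.95 in MCD livers after PH, the first 2 not well above background, and -2.68, -2.45, -1.87 and -2.61 in M+Fc-GLP-1 livers. The groups did not overlap, and the fitted change of Egf was 1.32 (SE 0.31, adjusted p = 0.00942), where 6.50% of all genes were called. The adjusted p was 0.0570 without MCD replicate 1, 0.0551 under normexp with quantile normalization and 0.0644 with only the groups compared. The interaction of diet and drug after PH called 0 genes of the 10 and 0% of all genes in limma, with 1835 genes at an unadjusted p under 0.05, Tgfa (-1.17) among them as the only 1 of the 10. Slide and group cannot be told apart in these differences, and in MCD-fed mice after PH 7 of 8 neutrophil markers were lower in the treated group.

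Over time, genes passed the test in the untreated groups alone, and none in the treated groups. The scanner changed between the times for both untreated groups and for neither treated group. Time and scanner therefore cannot be told apart in the untreated groups. In C livers Erbb3 fell by 1.51 on the log2 scale (SE 0.32, adjusted p = 0.00265), from the values given above to -2.39, -2.10, -1.36 and -1.69, a 2.85-fold lower signal. Tgfa read -1.18, -1.68, -1.28 and -1.35 before PH and was 1.92-fold lower after it (adjusted p = 0.00281). With the authors' values neither was called (Erbb3 -0.59, adjusted p = 0.0586, and Tgfa -0.09, adjusted p = 0.623), and Tgfa was not called with median centring (adjusted p = 0.0550). Neither gene overlapped between the times, and these were 2 of 10 genes, where 14.0% of all genes were called. In the same comparison 8 of 8 Kupffer cell markers, 5 of 6 markers of dividing cells and 3 of 8 neutrophil markers were higher after PH. Of 11 stellate cell and fibroblast markers 3 were higher and 1 lower, and 1 of 7 hepatocyte markers was lower. In MCD livers Met rose from between -0.56 and -0.33 to 0.37, 0.59, 0.48 and 0.52, a 1.93-fold change with groups that did not overlap (adjusted p = 0.0126), and Egf, well above background on 2 of 4 arrays after PH, had a fitted change of -1.34 (adjusted p = 0.00567), with 9.43% of all genes called. With the authors' values Egf changed by -0.17 (adjusted p = 0.340). In this comparison 7 of 8 neutrophil markers were higher after PH, with a median change of 3.32, and their part was not tested. Ereg was well above background on 4 of 4 MCD arrays before PH and 0 of 4 after it. Its mean over these arrays was at least 1.73-fold lower after PH, but the difference did not pass the test (adjusted p = 0.0765). In treated chow-fed and treated MCD-fed mice 0 of 10 genes passed limma's test, where 0.835% and 1.71% of all genes were called, with 1 and 0 of the 10 genes at an unadjusted p under 0.05. The interaction of diet and time under the drug called 0 of the 10 genes, where 0.0949% of all genes were called and 0 of the 10 had an unadjusted p under 0.05. Whether time acted differently in treated and untreated mice was not tested, since slide and group cannot be told apart there.

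Ordered by group mean, Erbb3 was highest in C (-0.38) and C+Fc-GLP-1 (-0.54) livers before PH, followed by C+Fc-GLP-1 after PH (-1.40), M+Fc-GLP-1 before PH (-1.56) and after PH (-1.61), C after PH (-1.89), MCD before PH (-2.19) and MCD after PH (-2.34). The arrays of each group overlapped those of the next group in this order, so no neighbours were set apart by more than their spread. Areg was highest in MCD livers before PH (-2.08) and after PH (-2.71), followed by M+Fc-GLP-1 livers after (-4.13) and before PH (-4.33), and it lay between -5.96 and -4.89 in the 4 chow-fed groups, where no array read it well above background. Hgf had group means between -2.37 and -1.38, and Hbegf between -1.53 and -0.86. Hgf, Hbegf and Ereg passed the test in 0 of the 15 comparisons and interactions.

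Other genes of the 2 pathways were read from 3 lists. Of the genes that activate HGF or work with MET, 25 of 28 were tested, and in MCD against C livers before PH 1 was higher and 3 lower, a smaller share than the 26.4% called among all genes, with a median of -0.16 against -0.13 for all genes. Plaur (2.15, adjusted p = 0.0140), the urokinase receptor, was higher. Spint2 (-1.31, adjusted p = 0.00841), an inhibitor of HGF-activating proteases, Plg (-0.75, adjusted p = 0.0376), which encodes plasminogen, and Hpn (-0.70, adjusted p = 0.0383), which encodes the HGF-activating protease hepsin, were lower. Mst1r, the MET relative that binds macrophage-stimulating protein, was higher on the MCD diet in both treated comparisons (1.53, adjusted p = 0.0156, before PH and 2.22, adjusted p = 0.000433, after PH) and in untreated mice after PH (1.64, adjusted p = 0.00889). In C livers over time 0 were higher and 5 of the 25 lower, where 14.0% of all genes were called. Shc1 (-1.25), Spint2 (-1.20) and Hgfac (-1.08), the HGF activator, had the largest changes.

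Of the other ERBB receptors, ligands, sheddases and inhibitors 20 of 24 were tested, and the neuregulin genes Nrg1 and Nrg4 had the largest changes among them on the MCD diet. Nrg4, a ligand of ERBB4, read 0.43, 0.94, -0.71 and -0.31 in C livers before PH and 1.98, 3.00, 2.53 and 2.28 in MCD livers. Nrg1, a ligand of ERBB3 and ERBB4, read -2.22, -1.88, -1.74 and -1.62 in C livers and 2.10, 3.05, 1.86 and 2.67 in MCD livers. Neither gene overlapped between the groups. Nrg1 was 19.5-fold higher (log2 change 4.28, SE 0.70, adjusted p = 6.33e-05) and Nrg4 5.13-fold higher (log2 change 2.36, SE 0.40, adjusted p = 9.61e-05). Nrg4 was also higher on the MCD diet in treated mice before PH (3.20, adjusted p = 2.52e-06), in untreated mice after PH (2.58, adjusted p = 6.12e-05) and in treated mice after PH (3.66, adjusted p = 3.95e-07). Nrg1 was higher in the first of these (2.19, adjusted p = 0.0426) and the next (2.23, adjusted p = 0.0345), where 1 C array after PH read 2.73, within the MCD range. Before PH 3 genes of this list were higher, Rhbdf1 (1.52, adjusted p = 0.00801), a partner of a sheddase, being the third, and 3 were lower, Lrig2 (-1.14), Adam12 (-0.90) and Lrig1 (-0.85), an inhibitor of the ERBB receptors, with a list median of 0.01. These are 6 of 20, near the 26.4% of all genes. Erbb2 and Erbb4, the receptors that pair with ERBB3 or bind neuregulins, were not called in that comparison.

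**Figure D4:**
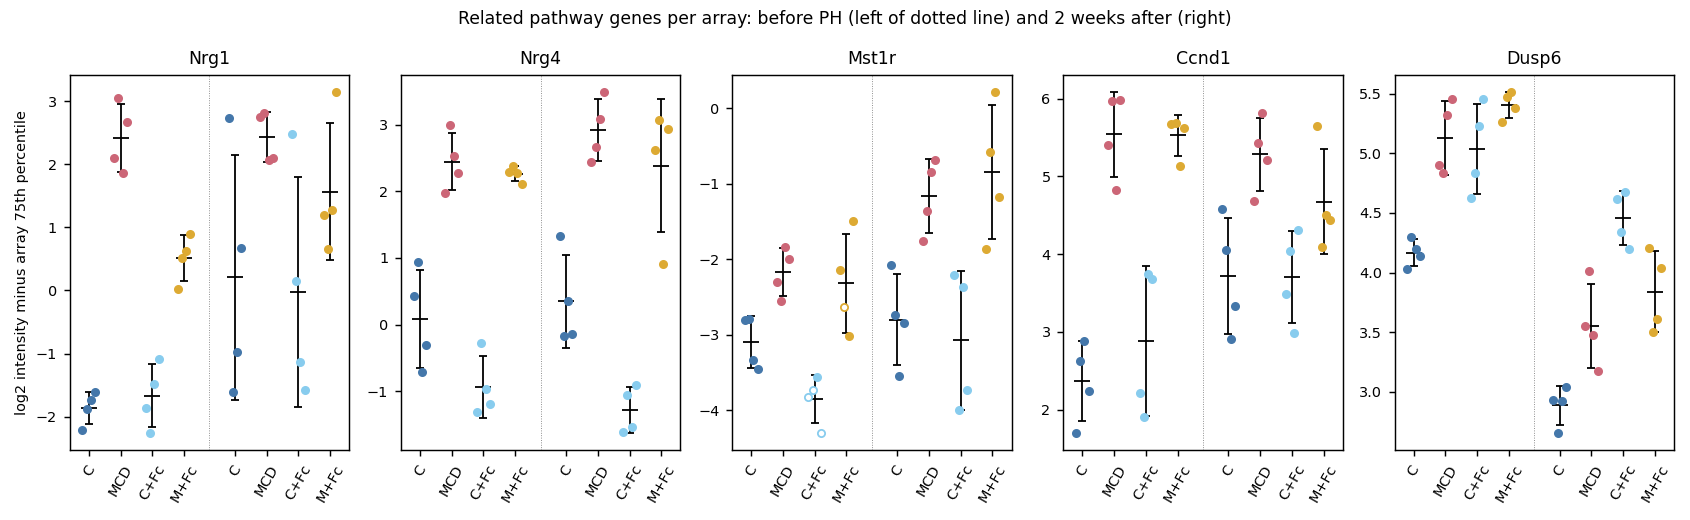
Level of 5 genes of the pathway lists on each array (log2 intensity minus the 75th percentile of the array), with mean and SD over 4 arrays, chosen after their values were seen. Nrg4 lies at 0.91 or above on every array of the MCD diet before and after PH and at or below 1.34 on every chow array.

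Of the ERK feedback and target genes 18 of 22 were tested, and 8 were higher and 3 lower in MCD against C livers before PH, where 26.4% of all genes were called, with a median of 0.77 against -0.13 for all genes. The largest changes were those of Ccnd1 (3.18, adjusted p = 4.25e-06), which encodes cyclin D1, Ier3 (2.46, adjusted p = 0.00641) and Plaur (2.15), and of Phlda1 (-2.33, adjusted p = 0.000582), Fos (-1.82, adjusted p = 0.0337) and Dusp1 (-1.64, adjusted p = 0.00112). Dusp6, the ERK phosphatase that ERK itself induces, was higher with Fc-GLP-1 in chow-fed mice before PH (0.87, adjusted p = 0.0287) and after PH (1.57, adjusted p = 0.000178). It was the only 1 of the 18 genes called in either comparison, where 2.11% (before PH) and 2.06% (after PH) of all genes were called. In C livers over time 1 was higher, Ccnd1 (1.35), and 6 were lower, where 14.0% of all genes were called. Fos (-2.18), Phlda1 (-1.74) and Dusp1 (-1.53) had the largest falls. In M+Fc-GLP-1 against C+Fc-GLP-1 livers before PH 4 were higher and 3 lower, where 10.4% of all genes were called, with Ccnd1 (2.64, adjusted p = 9.66e-05), Myc (1.90) and Dusp4 (1.28) as the largest rises and Fos (-2.12), Dusp1 (-2.03, adjusted p = 0.000260) and Egr1 (-1.44) as the largest falls. After PH 2 were higher in that comparison, Myc (1.53) and Etv4 (0.98), and 3 lower, Fos (-2.88), Dusp1 (-1.04) and Etv5 (-0.82), where 12.8% of all genes were called. In MCD against C livers after PH 4 were higher, Ier3 (2.21), Dusp4 (1.69), Ccnd1 (1.56) and Dusp6 (0.66), and 0 lower, where 12.1% of all genes were called. In M+Fc-GLP-1 against MCD livers 0 of the 18 were called before or after PH, where 7.22% and 6.50% of all genes were called.

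Correlations among the 6 genes well above background on every array went in both directions. Over 32 arrays, which share groups, slides and array quality, the highest correlation among them was 0.54, between Erbb3 and Tgfa, and 0.12 after the group means were removed. Hgf and Met had a correlation of -0.36, and -0.55 after the group means were removed. For Egfr and Hbegf these values were -0.26 and -0.52. The lowest correlation over arrays among the 6 genes was -0.48, between Hgf and Erbb3, and 0.02 after the group means were removed. The tested genes most like each of them by Pearson's r over 32 arrays were Vsig10 (0.84) and Ifi27l2b (0.77) for Hgf, Ces3a (0.84) and Slc4a9 (0.84) for Egfr, 1700047G07Rik (0.86) and Smarcd2 (0.86) for Erbb3, Zfp429 (0.69) and Cd2ap (0.68) for Hbegf, and Hspa1a (0.77) for Tgfa beside a probe with no gene symbol (0.72). For Met they were Fam71e1 (0.84) and a probe named only by its region (0.83). After the group means were removed these correlations ran from 0.56 to 0.80.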

How the data were processed

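RNA of 32 liver samples was measured on 1-colour 60-mer arrays of 62976 spots. The authors deposited scanner intensities from Feature Extraction 10.7.3.1, whose headers name a background subtraction and detrending within each array, and a table of normalized log2 values that the authors made with limma, its background correction and normalization not given in the sources used here. From the intensities, the log2 processed signal was centred on the 75th percentile of the array's 59305 non-control spots. Spots flagged as outliers were left out, 426 probes with no usable spot on some array were dropped, spots of a probe were averaged, and of the probes well above background on the 4 arrays of some group the brightest stood for its gene (28937 probes, 21073 genes). Of 55681 probes, 27656 were named by RefSeq accession, 1711 of them otherwise than in the files. The fit used limma 3.58.1 (R 4.3.3) on the 8 groups together, with Benjamini-Hochberg adjustment over all genes and a threshold of 0.05, for 12 comparisons between groups and 3 interactions. Groups follow the labels of the arrays. The precision is limited by the number of arrays, 4 a group.

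The 10 genes and the lists of pathway and marker genes were chosen with earlier results of these data known. The 10 genes are named in every comparison, at most the 3 largest rises and falls past the threshold are named per pathway list, and for each gene always above background the 2 tested genes with the highest correlation are named. Of the genes listed with HGF and MET, 1 is not reported here and is left out of the counts. Promoter windows of 7 of the 10 genes come from RefSeq (GRCm38.p6), and probe sequences and mm9 positions from the array files. Alternatives were normexp (offset 50) with quantile normalization, median centring, the deposited normalized table, all probes without the filter, a gene's probes averaged, fits limited to the groups compared, a block for the replicate number, and fits without each single array. A percentile over probes always above background, the fit of each Egfr probe and a fit over time with same-numbered arrays of a diet and treatment as pairs were added after seeing the data. The steps were tested on simulated data. The study's protein, metabolite and histology data were not analysed here.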

Additional observations from a re-analysis of the deposited data

Results flagged for a closer look

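In 10 of 96 sets of 4 arrays of the 12 probes, 1 array stood apart from the other 3 by Dixon's test at the 95% level, which chance alone gives for about 1 in 20 sets. C after PH replicate 1 was the lowest of its group on all 3 Egfr probes, at 3.42 for A_52_P106259, 2.42 for A_55_P1956863 and 2.10 for A_55_P1956862. M+Fc-GLP-1 after PH replicate 4 was the lowest for A_52_P106259 at 3.93 and for A_55_P1956862 at 1.52. C before PH replicate 1 was the lowest for A_52_P106259 at 4.37 and for Btc at -5.92, where the Btc probe was not well above background. The remaining 3 were Erbb3 on MCD before PH replicate 1, the highest of its group at -1.49, Tgfa on MCD after PH replicate 4 at -1.66, in a group of arrays very close to each other, and Ereg on C+Fc-GLP-1 before PH replicate 3 at -4.44, in a group with no array well above background.

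The difference between treated and untreated mice depended on the diet before PH, by limma's interaction test, for Met (1.34 on the log2 scale) and Areg (-2.76). The Met call was lost under 3 of 8 other settings (0.71, adjusted p = 0.148, with median centring). The Areg call was lost in 12 of 16 fits without 1 array and under 4 of 8 other settings, with the probe well above background on 0 of 4 arrays of both chow groups and 1 of 4 M+Fc-GLP-1 arrays.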

How the results depend on the processing

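The calls of Met, Erbb3 and Areg in MCD against C livers before PH, and of Areg in the same comparison after PH held under all 8 alternatives and without each array, and so did that of Met over time in MCD livers under 9. The number called in MCD against C before PH, 6, was 7 with median centring (Hgf and Ereg gained, Egfr lost), 8 with only the groups compared, and 5 with no filter or with the authors' values. In the other comparisons it moved as follows. Under normexp with quantile normalization it was 1 in place of 0 in C+Fc-GLP-1 against C before PH and in C+Fc-GLP-1 over time, 3 in place of 1 in M+Fc-GLP-1 against MCD before PH, 1 in place of 4 in M+Fc-GLP-1 against C+Fc-GLP-1 before PH, 0 in M+Fc-GLP-1 against MCD and against C+Fc-GLP-1 after PH (from 1 and 2), and 1 in place of 2 in the interaction before PH. With median centring it was 2 in M+Fc-GLP-1 against MCD and 3 in M+Fc-GLP-1 against C+Fc-GLP-1 before PH, 0 in M+Fc-GLP-1 against C+Fc-GLP-1 after PH and 1 in C livers over time. With the percentile over probes always above background, chosen after seeing the data, it was 1 in C+Fc-GLP-1 against C before PH, 3 and 1 in M+Fc-GLP-1 against C+Fc-GLP-1 before and after PH and 1 in the interaction. With no filter it was 2 in M+Fc-GLP-1 against MCD and 1 in M+Fc-GLP-1 against C+Fc-GLP-1 before PH, 0 in the latter after PH and 1 in the interaction. With only the groups compared it was 1 in M+Fc-GLP-1 against C+Fc-GLP-1 before PH, 0 in both drug comparisons after PH, 4 in MCD livers over time and 1 in the interaction. With the authors' values it was 1 in C+Fc-GLP-1 against C, 2 in M+Fc-GLP-1 against MCD and 0 in M+Fc-GLP-1 against C+Fc-GLP-1 before PH, 2 and 0 in M+Fc-GLP-1 against MCD and against C+Fc-GLP-1 after PH, 4 in C livers, 3 in MCD livers, 5 in C+Fc-GLP-1 livers and 3 in M+Fc-GLP-1 livers over time, and 1 in the interaction. Those values have medians of 6.53 to 6.55 before PH and 6.87 to 6.89 after it, so their differences over time run across separate normalizations, and 3 had the opposite sign and passed the test: Met in C livers (0.53), Tgfa in C+Fc-GLP-1 livers (0.44) and Egf in M+Fc-GLP-1 livers (0.39). The cause of the other differences was not tested.

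Without 1 array, the number called lay between 3 and 5 in MCD against C (from 6), 0 and 1 in C+Fc-GLP-1 against C, 0 and 2 in M+Fc-GLP-1 against MCD and 1 and 3 in M+Fc-GLP-1 against C+Fc-GLP-1 livers before PH, between 1 and 2 in MCD against C, 0 and 1 in M+Fc-GLP-1 against MCD and 0 and 1 in M+Fc-GLP-1 against C+Fc-GLP-1 livers after PH, and between 1 and 2 in the interaction before PH. Same-numbered arrays of different groups deviated together no more than others (mean correlation of residuals 0.02 over 112 pairs against -0.01 over 336). These pairs include groups that cannot share a mouse, so the check cannot decide whether numbers pair arrays before and after PH. Of the 16 same-numbered pairs before and after PH of 1 diet and treatment, 0 had a correlation over 0.1 (from -0.05 to 0.09), and a block for these pairs, added after seeing the data, left the number called over time at 2 in C, 2 in MCD and 0 in both treated groups and changed no call. The replicate block gave 2 in M+Fc-GLP-1 against MCD before PH, where Btc passed the test (adjusted p = 0.0474), 1 in M+Fc-GLP-1 against C+Fc-GLP-1 after PH and 1 in the interaction, where Areg missed it (adjusted p 0.0545 and 0.0607), and it changed no other call. Slide as a random block was not run, since it could not be fitted beside the groups. Median centring moved the median of all genes in MCD against C livers before PH from -0.13 to 0.24, and relative to that median Hgf changed by the same amount under both scalings although it passed the test only with median centring (1.29, adjusted p = 0.0145) or with only these 2 groups (adjusted p = 0.0178). Signal over background limits Areg, Ereg and Btc, which lay at or below background on many arrays.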

Other observations

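The pathway lists held some calls in the comparisons not described above. In MCD livers over time Lrig2 (1.52) and Sos1 (1.59) were higher and Timp3 (-0.89), Inppl1 (-0.72) and Dusp6 (-1.58) lower after PH. In C+Fc-GLP-1 livers Egr1 (-2.15) and Spred2 (-1.01) were lower after PH, 2 of 18 ERK genes tested, where 0.835% of all genes were called. In M+Fc-GLP-1 livers Fos (-2.84) and Dusp6 (-1.56) were lower after PH, also 2 of 18, where 1.71% of all genes were called. Timp3, the inhibitor of the sheddase that releases several EGFR ligands, was higher with the drug in MCD-fed mice after PH (0.87) and on the MCD diet in treated mice before PH (1.26, adjusted p = 0.00132). Nrg4 was lower in C+Fc-GLP-1 than in C livers after PH (-1.62, adjusted p = 0.0280).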
